A study of Homo sapiens with 16 samples.

Results

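Transcripts of 8 genes grouped under hyaluronan synthesis and breakdown were followed across 2 mesenchymal triple-negative breast cancer lines that had been sorted by a Wnt reporter. The genes were taken by name and by known function, with earlier results of these data known. They include the hyaluronan synthases HAS2 and HAS3, the precursor enzyme UGDH, and the hyaluronidases HYAL1, HYAL2 and HYAL3. The others are CEMIP (also called KIAA1199), a hyaluronan-depolymerizing protein, and its transmembrane relative CEMIP2 (also called TMEM2). All 8 were found among the 57820 gene identifiers of the tables, and all 8 passed the filter on low counts in both serum conditions. The cells were MDA-MB-231 and MDA-MB-436, established lines of basal origin that grow as spindle-shaped cells. Both had been stably transfected with 7TGP, a vector in which repeated Tcf/Lef sites drive eGFP, and selected with puromycin, so the reporter-negative cells carry the vector as well. Repeated FACS gave a Wnt-positive (7TGP-POS) and a Wnt-negative (7TGP-NEG) subline of each line, which are sorted populations and not clones. Each subline was grown in low serum (0.5% FBS, harvested on day 3) and in standard serum (10% FBS, harvested on day 6), with 2 libraries in each of the 8 groups and 16 libraries in all. Low serum RNA was depleted of ribosomal RNA and standard serum RNA was selected for polyadenylated transcripts according to the methods, and the runs also differed. Effects of serum, culture time and library preparation cannot be told apart, so every test stayed within one serum condition. According to the methods, each line had its own medium, so line and medium cannot be told apart in comparisons between the lines. In bulk samples, fewer cells of a type and less RNA per cell cannot be told apart either.

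Hyaluronan is a long unbranched sugar polymer of the extracellular matrix. The HAS enzymes spin it out through the plasma membrane from UDP-glucuronic acid, which UGDH makes from UDP-glucose, and UDP-N-acetylglucosamine, and the polymer binds receptors such as CD44. HYAL2 cuts the long polymer at the cell surface and HYAL1 digests fragments in lysosomes. CEMIP acts in hyaluronan breakdown by a route that does not need the HYAL enzymes, and the transmembrane protein CEMIP2 is grouped with it as a relative. In mesenchymal breast cancer cells, HAS2 is known as the main synthase.

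CEMIP was the member that rose in every comparison of Wnt-positive with Wnt-negative cells, and CEMIP2 is its closest relative among the 8, so the 250 bases before the RefSeq start of each are given first, on GRCh38.p14 (the count files use GRCh37, hg19). The CEMIP stretch lies on the plus strand at chr15:80779120-80779369, and the CEMIP2 stretch on the minus strand at chr9:71768514-71768763. A window of HAS3 that holds the single match to the Tcf/Lef core lies on the plus strand at chr16:69107545-69107574, just inside the transcript. Capitals mark TATAAA in CEMIP and CTTTGA in HAS3.
CEMIP: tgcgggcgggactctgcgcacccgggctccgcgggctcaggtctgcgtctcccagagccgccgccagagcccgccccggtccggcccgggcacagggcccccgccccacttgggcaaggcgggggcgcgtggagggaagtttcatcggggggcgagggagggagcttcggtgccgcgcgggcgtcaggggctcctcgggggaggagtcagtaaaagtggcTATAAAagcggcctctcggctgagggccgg
CEMIP2: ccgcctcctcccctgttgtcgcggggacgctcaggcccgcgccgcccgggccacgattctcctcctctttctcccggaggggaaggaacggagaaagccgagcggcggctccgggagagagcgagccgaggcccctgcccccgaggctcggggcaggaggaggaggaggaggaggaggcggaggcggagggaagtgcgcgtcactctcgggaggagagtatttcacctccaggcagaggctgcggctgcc
HAS3: cgttcgcggctgCTTTGAcctggtgggcgc
The CEMIP sequence holds TATAAA 30 bases before the start and is 74.4% G and C, and the CEMIP2 sequence holds no such match and is 71.6% G and C. Windows of 250 bases before to 50 after the start were searched on both strands for CTTTGA (the Tcf/Lef core), for its longer forms CTTTGAA and CTTTGAT, which overlap it, for TGACTCA (AP-1) and for TATAAA. Of 35116 RefSeq promoters, 12.9% held CTTTGA, 4.43% CTTTGAA, 2.62% CTTTGAT, 4.95% TGACTCA and 11.5% TATAAA. A promoter was on hand for 7 of the 8 members, HAS2 being the exception. Their matches were TATAAA in CEMIP and CTTTGA 18 bases after the start of HAS3, and these letters were not found in the windows of HYAL1, HYAL2, HYAL3, CEMIP2 or UGDH.

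The libraries held 27918418 to 32667756 counts on genes in low serum and 31827130 to 46044073 in standard serum, of which 89.0% to 94.0% and 96.8% to 97.8% fell on protein-coding genes. The median SD between replicates (log2 CPM) was 0.0992 for the Wnt-positive MDA-MB-436 libraries of standard serum, against 0.0453 to 0.0705 for the remaining 7 groups, so the change of each member in that comparison is also given with either library left out. The mesenchymal label was checked against 5 markers (VIM, FN1, ZEB1, SPARC and CDH2) and 5 epithelial ones (CDH1, EPCAM, ESRP1, KRT8 and KRT18). VIM ranged from 672 to 4905 CPM over the group means and CDH1 stayed at or below 0.271 CPM, but CDH2 was near 0 in MDA-MB-231 (0.193 to 1.55 CPM) and KRT8 reached 712 CPM. ESR1 and PGR stayed at or below 0.645 and 0.961 CPM. The leukocyte gene PTPRC was at 1.83 and 2.04 CPM in Wnt-negative and 4.18 and 4.27 CPM in Wnt-positive MDA-MB-231 cells in low serum, at 6.69 to 9.31 CPM in MDA-MB-231 in standard serum, and at or below 0.349 CPM in MDA-MB-436. Of 9 Wnt target genes (AXIN2, LEF1, TCF7, NKD1, RNF43, ZNRF3, LGR5, SP5 and NOTUM), 4 were higher and 1 was lower at an adjusted p under 0.05 in Wnt-positive MDA-MB-231 cells with low serum, and 1 was higher with standard serum. In Wnt-positive MDA-MB-436 cells, 2 were higher and 2 lower with low serum, and 1 was higher and 2 lower with standard serum. Over all genes, 38.9% and 33.0% differed in MDA-MB-231 and 52.0% and 49.5% in MDA-MB-436, low serum first. Of the targets that differed, those that did so by at least 1 on the log2 scale numbered 1 and 1 in MDA-MB-231, each higher. In MDA-MB-436 they numbered 1 and 2, all lower. The part of the PTPRC and Wnt target differences in the results below was not tested.

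Levels are printed for each replicate as CPM, in which counts are divided by the library's total, and changes are log2 fold changes of 7TGP-POS over 7TGP-NEG with standard errors (SE) from edgeR's quasi-likelihood fit, positive where Wnt-positive cells are higher. A gene is called higher or lower at a Benjamini-Hochberg adjusted p under 0.05 over all genes tested, and a DEG when its log2 fold change is also at least 1 in size. In MDA-MB-231 in low serum, 7 of the 8 members differed, 4 higher and 3 lower, beside 38.9% of all genes, and 2 (HAS2 and CEMIP) were DEGs beside 5.90% of all genes. In MDA-MB-436 in low serum, 4 of 8 differed beside 52.0% of all genes, and CEMIP was the only DEG among them beside 10.5%. In standard serum, 5 of 8 differed in MDA-MB-231 (33.0% of all genes), with CEMIP as the 1 DEG (7.69%). In MDA-MB-436, 4 of 8 differed (49.5% of all genes), and CEMIP and HYAL1 were DEGs (12.5%), the former higher and the latter lower. The median size of the members' log2 fold changes, in either direction, was 0.73 for MDA-MB-231 and 0.44 for MDA-MB-436 with low serum (0.24 and 0.31 over all genes), and 0.51 and 0.34 with standard serum (0.26 and 0.36 over all genes). The shares that differed in MDA-MB-436 lay near the background and those in MDA-MB-231 above it, and from 8 members nothing particular to the list can be read.

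**Figure D1:**
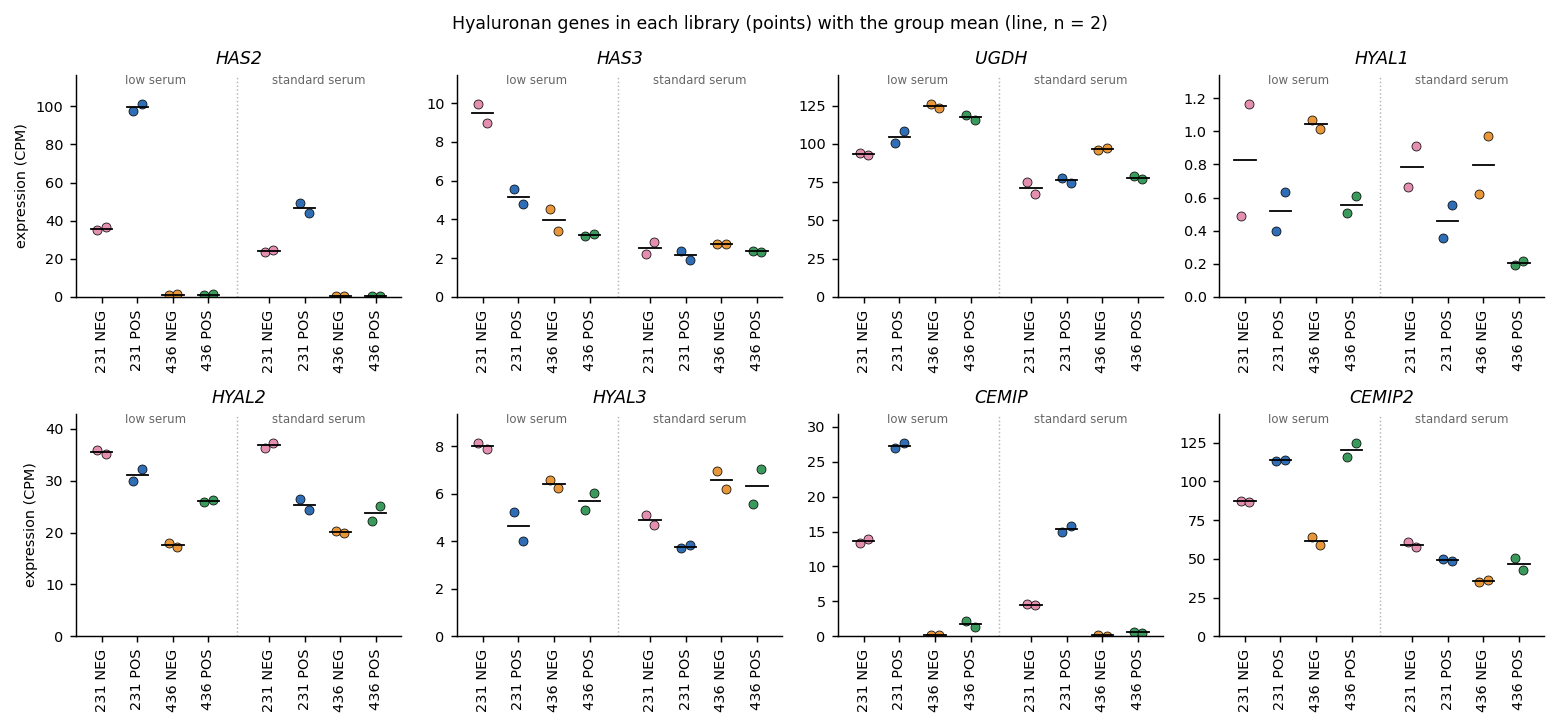
CPM of each hyaluronan gene in each of the 16 libraries (points, coloured by subline) with the mean of each group (line, n = 2), low serum left and standard serum right of the dotted line in each panel. HAS2 sits between 23.5 and 101 CPM in MDA-MB-231 and at or below 1.40 CPM in MDA-MB-436, and CEMIP is higher in the 7TGP-POS libraries of both lines.

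HAS2 (ENSG00000170961, GRCh37 chromosome 8, 122624356 to 122653680, minus strand), the main synthase, was higher in Wnt-positive than in Wnt-negative MDA-MB-231 cells and scarce in MDA-MB-436. In low serum, MDA-MB-231 7TGP-NEG held 34.9 and 36.9 CPM and 7TGP-POS held 97.5 and 101 CPM. In standard serum, the same groups held 23.5 and 24.9, and 49.3 and 44.2 CPM. The groups did not overlap in either condition. HAS2 rose by 1.48 in low serum (SE 0.0623, adjusted p = 1.63e-22 from edgeR), a 2.79-fold difference that ranked 61 by p among the 16069 genes tested, and by 0.90 in standard serum (SE 0.0945, adjusted p = 6.98e-07), a 1.86-fold difference just short of the DEG threshold. Leaving out any one library kept the standard serum value between 0.80 and 0.99. MDA-MB-436 held 37 and 40 counts (1.13 and 1.40 CPM) in 7TGP-NEG and 39 and 36 counts (1.23 and 1.29 CPM) in 7TGP-POS in low serum, values that interleave. In standard serum it held 14 and 17 counts (0.415 and 0.434 CPM) in 7TGP-NEG, and 27 and 20 counts (0.586 and 0.549 CPM) in 7TGP-POS. No difference was detectable at this depth in low serum (log2 fold change -0.01, SE 0.22, adjusted p = 0.993) or in standard serum (0.36, SE 0.272, adjusted p = 0.369, with values of 0.28 and 0.41 without 7TGP-POS replicate 1 or 2). The ratios of the pooled MDA-MB-436 counts, scaled to library totals, had 95% intervals of 0.720 to 1.40 and 0.834 to 2.18, which cover counting error only.

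HAS3 (ENSG00000103044, chromosome 16, 69139556 to 69152622, plus strand), a second synthase, moved the other way from HAS2 in MDA-MB-231 under low serum. It stood there at 9.98 and 8.98 CPM in 7TGP-NEG and at 5.55 and 4.80 CPM in 7TGP-POS, without overlap, and fell by 0.86 (SE 0.131, adjusted p = 7.42e-07 from edgeR). In standard serum the MDA-MB-231 values were lower and interleaved, with 2.21 and 2.83 CPM against 2.37 and 1.92 CPM (log2 fold change -0.28, SE 0.202, adjusted p = 0.328). MDA-MB-436 had 4.53 and 3.39 CPM against 3.13 and 3.22 CPM in low serum, and 2.75 and 2.71 CPM against 2.39 and 2.33 CPM in standard serum. Both MDA-MB-436 differences had a negative sign but missed the threshold (log2 fold change -0.34, SE 0.164, adjusted p = 0.0810, and -0.26, SE 0.192, adjusted p = 0.272). The low serum value rested on which 7TGP-NEG library was kept: it was -0.12 (adjusted p = 0.676) without replicate 1 and -0.51 (adjusted p = 0.0241) without replicate 2. The standard serum value was -0.31 and -0.24 without 7TGP-POS replicate 1 or 2.

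UGDH (ENSG00000109814, chromosome 4, 39500375 to 39529931, minus strand), the source of UDP-glucuronic acid, had the highest level per length of the 8 and changed little. In low serum it read 94.1 and 92.9 CPM in MDA-MB-231 7TGP-NEG against 101 and 108 CPM in 7TGP-POS, and 126 and 123 CPM against 119 and 116 CPM in MDA-MB-436. In standard serum the values were 75.3 and 67.5 CPM against 77.8 and 74.5 CPM in MDA-MB-231, and 96.2 and 97.5 CPM against 79.2 and 76.8 CPM in MDA-MB-436. The clearest change was the drop in MDA-MB-436 in standard serum, where UGDH fell by 0.37 (SE 0.0797, adjusted p = 0.000840 from edgeR), and the value was -0.42 without 7TGP-POS replicate 1 and -0.34 without replicate 2. In MDA-MB-231 in low serum the log2 fold change was 0.17 (SE 0.0542, adjusted p = 0.00936), but on the log2(TPM + 0.1) scale it was -0.03. That scale moved the median of all genes to -0.19. The adjusted p was 0.0524 without 7TGP-NEG replicate 1, 0.0876 without 7TGP-NEG replicate 2 and 0.20 without 7TGP-POS replicate 2. MDA-MB-231 in standard serum gave 0.04 (SE 0.0804, adjusted p = 0.769), and -0.05 to 0.13 with any 1 of its 4 libraries left out. MDA-MB-436 in low serum gave -0.10 (SE 0.0532, adjusted p = 0.108), and -0.19 without its 7TGP-POS replicate 1. It was past the threshold in edgeR with DESeq2's size factors (-0.14, adjusted p = 0.0337) and with another filter on low counts (-0.13, adjusted p = 0.0290). On the log2(TPM + 0.1) scale it was -0.35 (adjusted p = 0.00832 from limma-trend), where the median of all genes was -0.21.

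**Figure D2:**
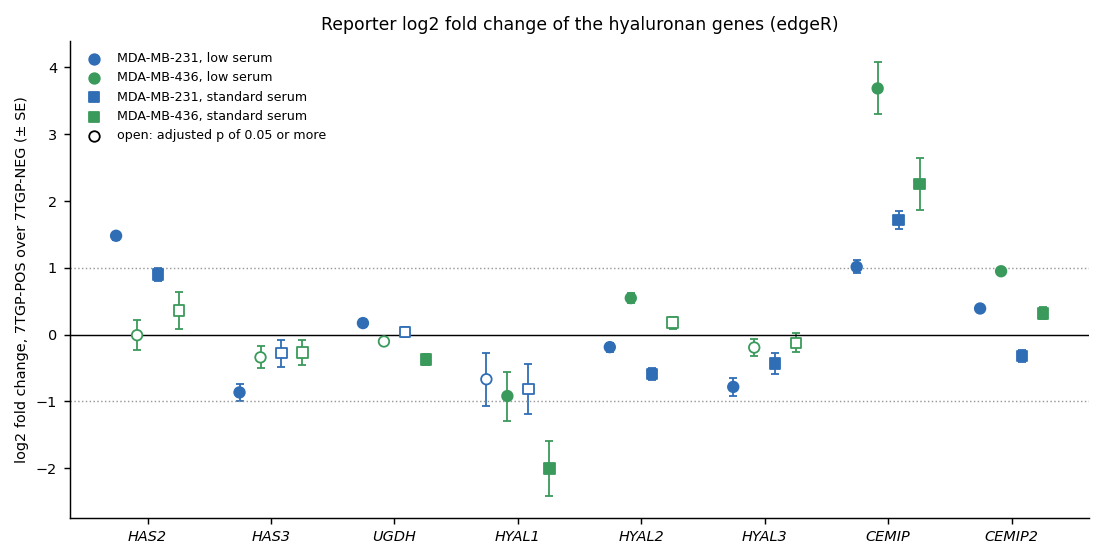
Reporter log2 fold change (7TGP-POS over 7TGP-NEG, ± SE, edgeR) of each member in the 4 comparisons, with n = 2 libraries on each side, filled where the adjusted p is under 0.05 and open otherwise, with dotted lines at the DEG limits of 1 and -1. CEMIP lies above 1 in all 4 comparisons, HAS2 lies above 0.8 in MDA-MB-231 only, and HYAL1 lies below 0 in all 4.

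The hyaluronidase genes HYAL3 (ENSG00000186792, 50330262 to 50336836), HYAL1 (ENSG00000114378, 50337321 to 50349812) and HYAL2 (ENSG00000068001, 50355221 to 50360213) lie side by side on the minus strand of chromosome 3. In MDA-MB-231 each had a negative log2 fold change in both serum conditions, not all past the threshold. In MDA-MB-436 they did not move as one block, with positive values for HYAL2 and negative ones for HYAL1 and HYAL3. HYAL1, the lysosomal enzyme, was scarce, with 8 to 38 counts per library. In low serum its CPM was 0.489 and 1.17 in MDA-MB-231 7TGP-NEG, 0.401 and 0.635 in 7TGP-POS, 1.07 and 1.01 in MDA-MB-436 7TGP-NEG, and 0.506 and 0.609 in 7TGP-POS. In standard serum it was 0.662 and 0.911, 0.356 and 0.558, 0.622 and 0.970, and 0.195 and 0.220 in the same order. Wnt-positive libraries thus lay below Wnt-negative ones without overlap in 3 of the 4 comparisons, MDA-MB-231 in low serum being the exception. HYAL1 fell by 2.00 in MDA-MB-436 in standard serum (SE 0.416, adjusted p = 0.000602 from edgeR), a 4.0-fold difference, with a log2 fold change of -1.94 without 7TGP-POS replicate 1, -2.07 without replicate 2 and -1.64 without 7TGP-NEG replicate 2. In low serum the MDA-MB-436 value was -0.92 (SE 0.367, adjusted p = 0.0338), and leaving out any 1 of the 4 libraries gave an adjusted p of 0.0548 to 0.128. In MDA-MB-231 the values missed the threshold (-0.67, SE 0.396, adjusted p = 0.193 in low serum and -0.82, SE 0.375, adjusted p = 0.108 in standard serum). The low serum value had no stable sign: it was -1.17 (adjusted p = 0.0295) without MDA-MB-231 7TGP-NEG replicate 1, the library at 0.489 CPM, and 0.081 (adjusted p = 0.940) without 7TGP-NEG replicate 2. Without 7TGP-POS replicate 1 or 2 it was -0.34 (adjusted p = 0.622) or -1.05 (adjusted p = 0.133).

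HYAL2, the surface hyaluronidase and the one with the highest TPM of the HYAL genes, changed in opposite directions in the lines under low serum. It fell from 36.0 and 35.1 CPM to 29.9 and 32.2 CPM in MDA-MB-231, and rose from 18.1 and 17.3 CPM to 25.8 and 26.3 CPM in MDA-MB-436. In standard serum it stood at 36.4 and 37.3 CPM against 26.4 and 24.3 CPM in MDA-MB-231, and at 20.3 and 19.9 CPM against 22.3 and 25.1 CPM in MDA-MB-436. Within a line and serum condition the groups did not overlap. The log2 fold changes in MDA-MB-231 were -0.19 in low serum (SE 0.0687, adjusted p = 0.0276 from edgeR) and -0.59 in standard serum (SE 0.0907, adjusted p = 5.00e-05). In low serum the call did not hold with DESeq2 (adjusted p = 0.162), nor without MDA-MB-231 7TGP-NEG replicate 1 (0.161), 7TGP-NEG replicate 2 (0.0737) or 7TGP-POS replicate 1 (0.292). The rise in MDA-MB-436 in low serum was 0.55 (SE 0.0753, adjusted p = 5.82e-08), and it was 0.30 (adjusted p = 0.0705) on the log2(TPM + 0.1) scale, which moved the median of all genes to -0.21. The standard serum value was 0.18 (SE 0.0922, adjusted p = 0.121), and it was 0.24 (adjusted p = 0.0404) without MDA-MB-436 7TGP-POS replicate 1 and 0.10 (adjusted p = 0.370) without replicate 2.

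HYAL3, whose own hyaluronidase activity is debated, was lower in Wnt-positive MDA-MB-231 cells. It stood at 8.15 and 7.91 CPM against 5.25 and 4.02 CPM in low serum (log2 fold change -0.78, SE 0.133, adjusted p = 5.68e-06 from edgeR). In standard serum it stood at 5.10 and 4.68 CPM against 3.70 and 3.85 CPM (-0.43, SE 0.159, adjusted p = 0.0457), a call that ended without any 1 of the 4 MDA-MB-231 libraries (adjusted p of 0.0694 to 0.251), without either MDA-MB-436 7TGP-NEG library (0.0670 and 0.0661) and with DESeq2 (0.147). In MDA-MB-436 the groups were close, with 6.58 and 6.25 CPM against 5.31 and 6.05 CPM in low serum and 6.96 and 6.20 CPM against 5.58 and 7.05 CPM in standard serum (-0.19, SE 0.132, adjusted p = 0.231, and -0.12, SE 0.144, adjusted p = 0.515). The standard serum value changed sign with the library left out, at 0.018 without 7TGP-POS replicate 1 and -0.28 (adjusted p = 0.137) without replicate 2.

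CEMIP (ENSG00000103888, chromosome 15, 81071684 to 81244117, plus strand), a secreted hyaluronan-depolymerizing protein, was the 1 member that was a DEG in all 4 comparisons, higher in Wnt-positive cells each time. In MDA-MB-231 it went from 13.3 and 13.9 CPM to 26.9 and 27.7 CPM in low serum, and from 4.55 and 4.46 CPM to 14.9 and 15.9 CPM in standard serum. These are rises of 1.01 (SE 0.0960, adjusted p = 1.59e-11 from edgeR) and 1.72 (SE 0.132, adjusted p = 1.35e-08), or 2.02-fold and 3.29-fold. The low serum value sat on the DEG limit: it was 0.98 without MDA-MB-231 7TGP-NEG replicate 1 and 0.97 without 7TGP-POS replicate 2, with adjusted p values of 1.61e-06 and 5.83e-08, and the count of members that were DEGs then went from 2 to 1. In MDA-MB-436 the gene was nearly silent in Wnt-negative cells. In low serum, 5 and 3 counts (0.153 and 0.105 CPM) stood against 68 and 36 counts (2.15 and 1.29 CPM), and in standard serum 4 and 4 counts (0.118 and 0.102 CPM) against 27 and 19 counts (0.586 and 0.521 CPM). The groups did not overlap, and the log2 fold changes were 3.69 (SE 0.390, adjusted p = 1.36e-10) and 2.25 (SE 0.391, adjusted p = 0.000109). From the pooled counts, the ratio was 13.4 in low serum (95% interval 6.54 to 31.8) and 5.08 in standard serum (2.38 to 12.5), counting error only. Without 7TGP-POS replicate 1 or 2, the standard serum value was 2.13 or 2.33.

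CEMIP2 (ENSG00000135048, chromosome 9, 74298282 to 74431606, minus strand), the transmembrane relative, had a higher TPM than CEMIP in all 8 groups and rose in low serum in both lines. It went from 87.2 and 86.9 CPM to 113 and 114 CPM in MDA-MB-231, and from 64.3 and 59.1 CPM to 116 and 125 CPM in MDA-MB-436. These rises were 0.39 (SE 0.0532, adjusted p = 7.74e-08 from edgeR) and 0.95 (SE 0.0542, adjusted p = 1.66e-18), of which the latter ranked 347 by p of 16069 genes without reaching the DEG limit. On the log2(TPM + 0.1) scale, with its median of -0.19 over all genes, the MDA-MB-231 value was 0.19 (adjusted p = 0.277). In standard serum the lines parted. CEMIP2 was lower in Wnt-positive MDA-MB-231 cells, at 60.6 and 57.6 CPM against 50.1 and 48.4 CPM (-0.32, SE 0.0904, adjusted p = 0.0110), and higher in MDA-MB-436, at 35.2 and 36.4 CPM against 50.3 and 42.6 CPM (0.32, SE 0.0913, adjusted p = 0.00727). Neither call held against every library. In MDA-MB-231 the adjusted p was 0.117 without 7TGP-NEG replicate 1 and 0.111 without 7TGP-POS replicate 2, and in MDA-MB-436 it was 0.0804 without 7TGP-NEG replicate 1. Without MDA-MB-436 7TGP-POS replicate 1 the value went to 0.17 with an adjusted p of 0.0904, and without replicate 2 to 0.44 with 0.000154.

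Whether the reporter change of a gene differed between the lines was tested as an interaction, the MDA-MB-231 log2 fold change minus that of MDA-MB-436. In low serum, 7 of 8 members passed, beside 45.7% of all genes. HAS2 changed more in MDA-MB-231 (interaction 1.49, SE 0.232, adjusted p = 9.65e-07 from edgeR) and CEMIP more in MDA-MB-436 (-2.67, SE 0.434, adjusted p = 2.14e-06). HYAL2 (-0.73, SE 0.102, adjusted p = 9.71e-08) and CEMIP2 (-0.56, SE 0.0758, adjusted p = 6.35e-08) also differed. HYAL3 (-0.59, SE 0.188, adjusted p = 0.00904), UGDH (0.27, SE 0.0760, adjusted p = 0.00266) and HAS3 (-0.52, SE 0.212, adjusted p = 0.0397) passed with larger p-values. The HYAL3 call ended with DESeq2 (adjusted p = 0.0911), and that of HAS3 held under neither DESeq2 (adjusted p = 0.191) nor the removal of any of 5 libraries (adjusted p of 0.115 to 0.236). HYAL1 was the exception (0.25, SE 0.551, adjusted p = 0.750). In standard serum, 3 of 8 passed, beside 41.2% of all genes: HYAL2 (-0.77, SE 0.129, adjusted p = 0.000104), CEMIP2 (-0.64, SE 0.129, adjusted p = 0.000605) and UGDH (0.41, SE 0.113, adjusted p = 0.00720). For HAS2 and CEMIP the standard serum interactions missed the threshold, at 0.53 (SE 0.295, adjusted p = 0.214) and -0.54 (SE 0.432, adjusted p = 0.416). On the TPM scales the HAS2 interaction passed, at 0.76 (adjusted p = 0.00174) on log2(TPM + 1) and 0.56 (adjusted p = 0.0264) on log2(TPM + 0.1). The sign for CEMIP depends on the scale, since on log2(TPM + 1), which compresses values as low as those of MDA-MB-436, it was 0.12 in low serum and 1.13 in standard serum. The UGDH call ended without MDA-MB-231 7TGP-NEG replicate 2 (0.32, adjusted p = 0.0704).

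HAS2 and CEMIP stood far apart between the lines, whose media also differed according to the methods. In Wnt-negative cells, 4 members were DEGs between the lines in low serum, all higher in MDA-MB-231 (41.9% of all genes were DEGs), and 3 in standard serum (46.7%). HAS2 was 30.6-fold and 65.1-fold higher in MDA-MB-231 (log2 difference 4.94, SE 0.113, and 6.02, SE 0.158), and CEMIP 6.76 and 5.52 higher on the log2 scale (SE 0.240 and 0.265, adjusted p = 1.92e-26 and 7.80e-13 from edgeR). HYAL2 was 2.16-fold and 2.11-fold higher in MDA-MB-231, and HAS3 was 2.56-fold higher in low serum but 1.06-fold in standard serum (adjusted p = 0.704). In Wnt-positive cells, 2 members were DEGs in low serum (38.9% of all genes) and 3 in standard serum (45.4%). HAS2 stood 85.9-fold and 94.2-fold higher in MDA-MB-231 there. For CEMIP the gap was 17.05-fold and 31.7-fold. The HYAL1 difference in standard serum (2.54-fold, adjusted p = 0.0137) missed the threshold with DESeq2 (adjusted p = 0.0743), without MDA-MB-231 7TGP-POS replicate 2 (0.144) and without MDA-MB-436 7TGP-POS replicate 1 (0.0694). UGDH was lower in Wnt-negative MDA-MB-231 than in Wnt-negative MDA-MB-436 cells in both serum conditions, by 0.31 and 0.23 on the log2 scale, although the standard serum call ended without MDA-MB-231 7TGP-NEG replicate 2 (-0.15, adjusted p = 0.219).

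Levels of different genes can be compared per length, on the deposited TPM scale (counts normalised for transcript length and library). UGDH led in all 8 groups, between 56.0 ± 1.52 TPM (SD, n = 2) in MDA-MB-231 7TGP-POS and 93.9 ± 7.25 TPM in MDA-MB-436 7TGP-NEG, both in low serum. Behind it the order depended on the line. In MDA-MB-231 7TGP-POS, HAS2 came next with 51.4 ± 2.58 TPM in low serum and 41.5 ± 3.73 TPM in standard serum. It was ahead of CEMIP2 (25.6 ± 1.88) in low serum and of HYAL2 (20.8 ± 1.45) in standard serum. In MDA-MB-231 7TGP-NEG, HAS2 (21.2 ± 1.01 TPM in low serum, 21.7 ± 0.318 in standard serum) sat beside CEMIP2 (22.4 ± 0.127 and 23.1 ± 1.41). In MDA-MB-436, CEMIP2, HYAL2 and HYAL3 followed UGDH, and HAS2 stayed at or below 0.97 TPM in every library. Neighbours in the order whose libraries overlapped, and so did not differ beyond their spread, were HAS3 and CEMIP in MDA-MB-231 7TGP-NEG and HYAL1 and HAS2 in MDA-MB-436 7TGP-NEG with low serum, CEMIP and HYAL1 in Wnt-positive MDA-MB-436 cells under both serum conditions, and HYAL2 and CEMIP2 in the latter cells with standard serum.

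The make-up of the synthase and breakdown transcripts differed between the reporter states in some comparisons and not in others. Of the summed TPM of HAS1, HAS2 and HAS3, HAS2 made up 82.5% ± 1.57 (SD, n = 2) in MDA-MB-231 7TGP-NEG and 95.9% ± 0.499 in 7TGP-POS in low serum, and 92.4% ± 0.956 and 96.5% ± 0.236 with standard serum. In MDA-MB-436 HAS3 led instead, with HAS2 at 29.1% ± 7.25 and 33.1% ± 0.0799 in low serum and 16.4% ± 0.523 and 23.1% ± 0.985 with standard serum. Summed synthase TPM went from 25.7 ± 0.735 to 53.6 ± 2.97 in MDA-MB-231 in low serum and from 23.4 ± 0.587 to 43.0 ± 3.97 in standard serum, and lay between 2.21 and 3.21 in the MDA-MB-436 groups. Of the summed TPM of the 5 genes grouped here under breakdown, CEMIP took 7.80% ± 0.264 and 14.5% ± 0.225 in MDA-MB-231 in low serum. With standard serum it took 3.38% ± 0.0107 and 13.7% ± 0.839. It took at most 1.36% in any MDA-MB-436 library, where CEMIP2 went from 46.4% ± 0.626 to 58.3% ± 0.558 in low serum. In standard serum the CEMIP2 shares of MDA-MB-436 overlapped, at 31.9% ± 1.18 in 7TGP-NEG and 36.4% ± 5.31 in 7TGP-POS. HYAL2 lost share in Wnt-positive MDA-MB-231 cells, from 34.2% ± 0.576 to 27.7% ± 1.34 and from 46.4% ± 1.29 to 37.9% ± 1.51. With 2 libraries a side these shares were not tested.

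**Figure D3:**
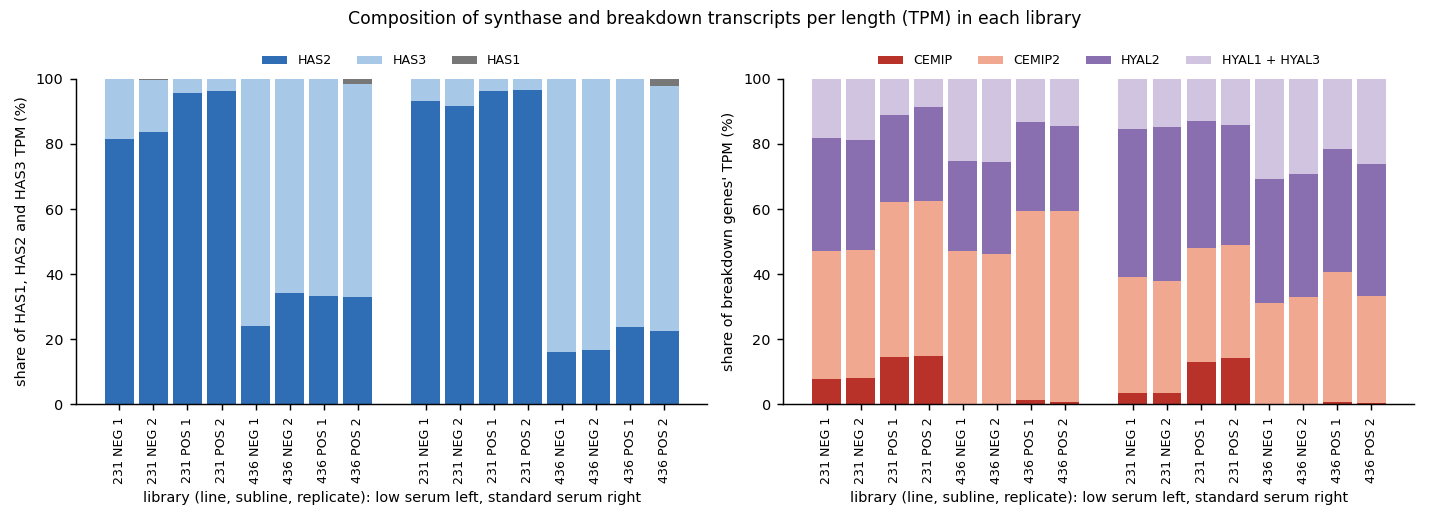
Share of each gene (%) in the summed TPM of HAS1, HAS2 and HAS3 (left) and of HYAL1, HYAL2, HYAL3, CEMIP and CEMIP2 (right), 1 bar per library, low serum left and standard serum right. HAS2 fills 81.4% to 96.7% of the synthase bars of MDA-MB-231 and 16% to 34.3% of those of MDA-MB-436, and CEMIP is a visible part of the breakdown bars of MDA-MB-231.

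To show whether its stretch of chromosome moved with it, each member was set beside the 50 nearest tested genes that averaged 1 CPM or more. Around CEMIP, the median log2 fold change of these neighbours lay between -0.06 and 0.03 in the 4 comparisons, far from the 1.01 to 3.69 of CEMIP itself. Around HAS2 in MDA-MB-231 it was 0.04 in low serum and 0.01 in standard serum, beside 1.48 and 0.90 for HAS2. In MDA-MB-436 in standard serum, the neighbours of HAS2 had a median of 0.36, beside 0.36 for HAS2, which missed the threshold. HAS3 in MDA-MB-231 in low serum (-0.86) and UGDH in MDA-MB-436 in standard serum (-0.37) lay away from their neighbours, whose medians were -0.05 and 0.10. The neighbours of HYAL1, HYAL2 and HYAL3, many of which they share, had medians of -0.19 to -0.18 in MDA-MB-231 in low serum, where HYAL2 was at -0.19, and of 0.34 to 0.36 in MDA-MB-436, where HYAL2 was at 0.55. In standard serum the medians were -0.12 to -0.09 in MDA-MB-231 and 0.25 in MDA-MB-436. HYAL1 lay 1.27 and 2.25 below its neighbours in MDA-MB-436 in low and standard serum. The neighbours of CEMIP2 had a median of -0.33 in MDA-MB-231 in standard serum, next to -0.32 for CEMIP2, and of -0.20 in low serum, where CEMIP2 was at 0.39. The part of a regional difference in these values was not tested.

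**Figure D4:**
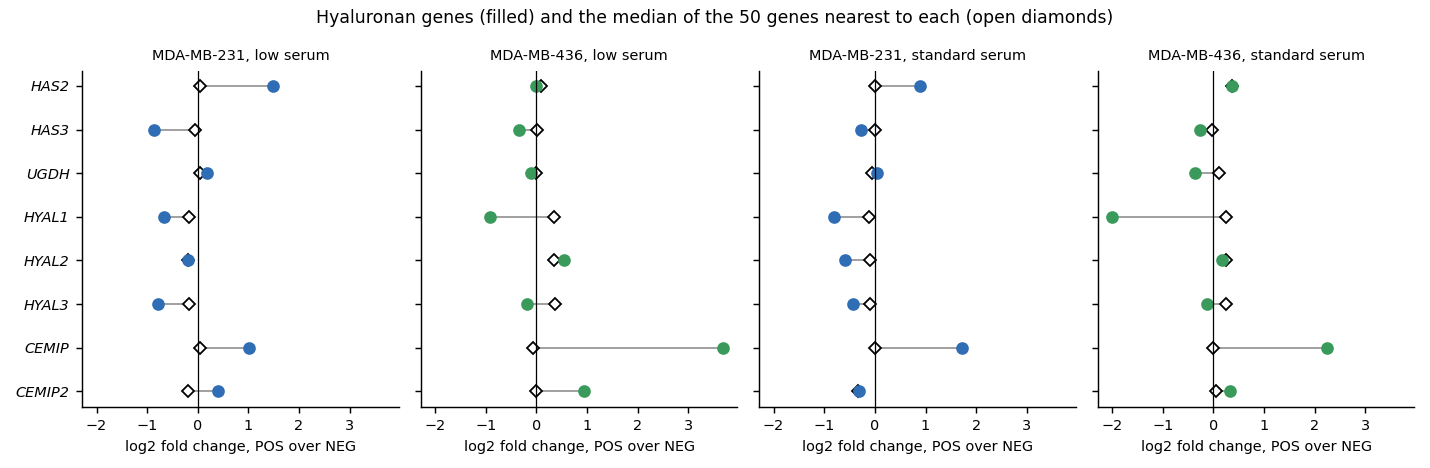
Log2 fold change (7TGP-POS over 7TGP-NEG, edgeR) of each member (filled circles) and the median of the 50 nearest genes on its chromosome (open diamonds) in the 4 comparisons. CEMIP lies far from its neighbours in each panel, whereas HYAL2 in MDA-MB-231 in low serum and CEMIP2 in MDA-MB-231 in standard serum coincide with theirs.

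Several members overlap other genes, and the strand setting behind the counts is not given in the sources used here. HAS2-AS1, an antisense RNA that overlaps HAS2 over 2148 bases, held 39 to 70 counts in the MDA-MB-231 libraries in low serum beside 1070 to 2919 for HAS2. MESD, which overlaps CEMIP on the opposite strand over 5488 bases and encodes a chaperone of Wnt co-receptors, held 829 and 727 counts in 7TGP-NEG and 658 and 575 in 7TGP-POS of MDA-MB-436 in low serum, so it lay lower in the libraries where CEMIP lay higher. In MDA-MB-231 it lay higher together with CEMIP, with 1012 and 1029 counts against 1101 and 1163 in low serum and 1660 and 1402 against 1887 and 1887 in standard serum. HYAL3 shares 3004 bases with NAA80 on the same strand, which held 328 and 356 counts in 7TGP-NEG and 263 and 202 in 7TGP-POS of MDA-MB-231 in low serum, where HYAL3 was lower too. HYAL2 shares 2756 bases with TUSC2 on the same strand. The values of HYAL2 and HYAL3 are thus uncertain to the extent that shared reads were dropped or assigned to either gene. The overlaps were taken from whole gene spans of Gencode v44, introns included, whereas the reads were counted on Gencode v19. CHTF8 overlaps HAS3 over 710 bases and UGDH-AS1 overlaps UGDH over 592 bases, both on the opposite strand.

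Around the 8 members, other genes of the pathway were counted by lists. A list of 10 genes of precursor metabolism held UGP2, GFPT1, GFPT2, GNPNAT1, PGM3, UAP1, NAGK, GNPDA1, GNPDA2 and UXS1. Not all of them act to supply the synthases, so the counts do not measure precursor supply. Of the 10, 7 rose and 1 fell in Wnt-positive MDA-MB-231 cells with low serum, and 5 rose and 1 fell with standard serum. Over all genes, 38.9% and 33.0% differed there in either direction. In Wnt-positive MDA-MB-436 cells, 2 rose and 5 fell with low serum, and 3 rose and 4 fell with standard serum, beside 52.0% and 49.5% of all genes. None of the 10 passed the DEG threshold in edgeR. The list medians were 0.28 (low) and 0.19 (standard) in MDA-MB-231 and -0.07 and 0.02 in MDA-MB-436, beside medians of -0.01 to 0.01 over all genes. UAP1, which makes UDP-N-acetylglucosamine, was named after its values were seen: it rose in all 4 comparisons, by 0.47 (MDA-MB-231) and 0.23 (MDA-MB-436) with low serum and by 0.64 and 0.80 with standard serum. HAS1, HYAL4 and SPAM1 stayed at 4 counts or fewer in every library. The lysosomal glycosidases GUSB and HEXA were not DEGs in any of the 4 comparisons. HEXA, also named after its values were seen, fell in all 4 comparisons, by 0.66, 0.26, 0.97 and 0.63 in the same order.

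Receptors and matrix partners of hyaluronan held the larger changes outside the 8 members. CD44, the main receptor, had 184 and 194 CPM in MDA-MB-436 7TGP-NEG and 453 and 456 CPM in 7TGP-POS in standard serum, a rise of 1.21 (SE 0.0740, adjusted p = 3.03e-10 from edgeR) that was 1.19 and 1.21 without 7TGP-POS replicate 1 or 2. In low serum it rose by 0.62 in MDA-MB-436 and 0.21 in MDA-MB-231, and in MDA-MB-231 in standard serum the value was -0.19 (SE 0.0728, adjusted p = 0.0537), and -0.25 (adjusted p = 0.0325) without 7TGP-POS replicate 1 but -0.13 (adjusted p = 0.310) without replicate 2. HMMR, a receptor also tied to the mitotic spindle, rose in MDA-MB-231 (0.68 and 0.76) and fell by 0.95 and 0.89 in MDA-MB-436. LAYN, a membrane lectin, rose by 0.97 and 0.56 in MDA-MB-231, and in MDA-MB-436 in standard serum it held 1 and 0 counts in 7TGP-NEG and 10 and 8 in 7TGP-POS, a call that held with either 7TGP-POS library left out (adjusted p = 0.00402 and 0.00230 from edgeR). Of 6 receptor genes, the low serum fit tested 5 and the standard serum fit 4, and the 2 DEGs were CD44 and LAYN in MDA-MB-436 in standard serum (12.5% of all genes there). Of 16 matrix genes that bind hyaluronan or its carrier proteins, 15 and 13 were tested, and DEGs numbered 2 in each line with low serum, and 2 in MDA-MB-231 and 4 in MDA-MB-436 with standard serum, all higher in Wnt-positive cells. Over all genes, DEGs made up 5.90% (MDA-MB-231) and 10.5% (MDA-MB-436) with low serum and 7.69% and 12.5% with standard serum, so 2 of 15 in MDA-MB-436 lay near the background. VCAN, a large hyaluronan-binding proteoglycan, was among them each time, with rises of 1.27 (SE 0.228), 1.14 (SE 0.109), 2.03 (SE 0.549) and 1.08 (SE 0.154), the third from 5 and 2 counts to 12 and 19. The MDA-MB-231 value with standard serum missed the threshold without MDA-MB-231 7TGP-NEG replicate 2 (adjusted p = 0.0581) or 7TGP-POS replicate 2 (0.10). In MDA-MB-436, VCAN fell just short of the DEG limit without 7TGP-NEG replicate 2 in low serum (0.99), and in standard serum without 7TGP-NEG replicate 1 (0.99) or 7TGP-POS replicate 1 (0.83). PTX3, a pentraxin that crosslinks hyaluronan complexes, rose from 55.5 and 55.8 CPM to 197 and 203 CPM in MDA-MB-231 in low serum (1.85, SE 0.0532, adjusted p = 3.92e-28) and by 0.42, 1.64 and 1.30 in the other comparisons. Beside VCAN, the other matrix DEG of MDA-MB-436 in low serum came from the pair of ITIH5 and ACAN. In standard serum ITIH5 and ACAN were both DEGs in that line, from 7 and 5 counts to 41 and 27, and from 5 and 3 counts to 36 and 13. ITIH5 gave 2.06 and 2.36 without 7TGP-POS replicate 1 or 2 (adjusted p = 0.0120 and 0.00244 from edgeR). ACAN gave 1.58 (adjusted p = 0.116) without 7TGP-POS replicate 1, 1.89 (adjusted p = 0.0854) without 7TGP-NEG replicate 2, and 2.74 (adjusted p = 0.00173) without 7TGP-POS replicate 2.

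**Figure D5:**
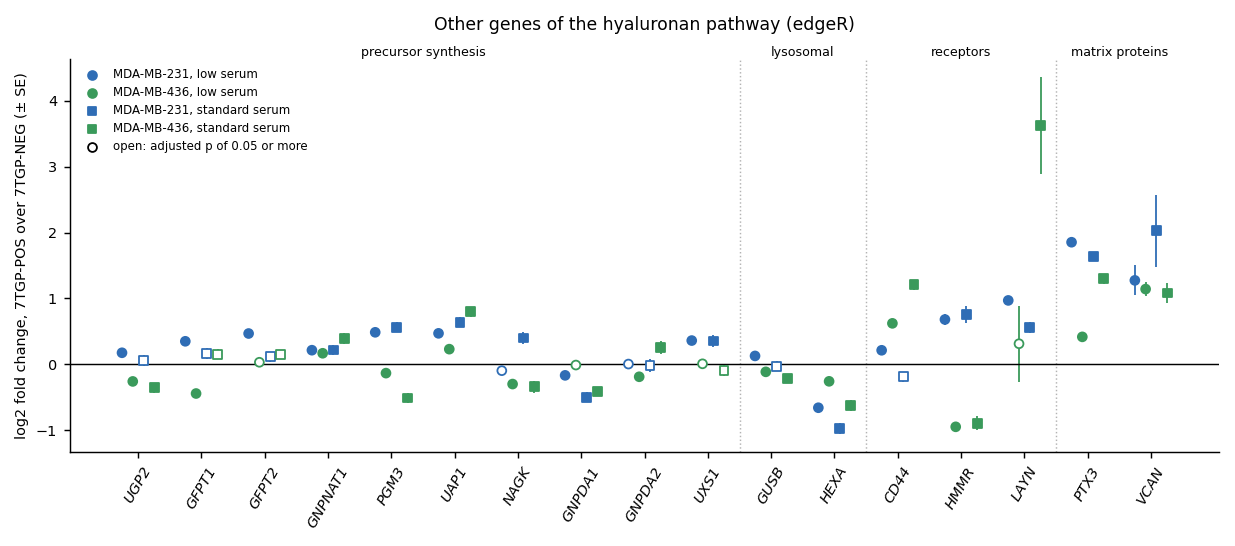
Reporter log2 fold change (7TGP-POS over 7TGP-NEG, ± SE, edgeR, n = 2 libraries a side) of other pathway genes, filled where the adjusted p is under 0.05. Shown are 10 genes of precursor metabolism, the lysosomal glycosidases GUSB and HEXA, the receptors CD44, HMMR and LAYN, and the matrix genes PTX3 and VCAN. PTX3 and VCAN lie above 0 in all 4 comparisons, and HMMR lies above 0 in MDA-MB-231 and below 0 in MDA-MB-436.

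Over the 16 libraries, each centred on the mean of its serum condition, the log2 CPM of HAS2 was most like that of MAGEC1, DMBT1 and LRRC61 (Pearson's r of 0.998, 0.996 and 0.996 among 12492 genes). CEMIP was most like MBTPS1 (0.995), AHR (0.990) and VEPH1 (0.990), and CEMIP2 most like CTDSPL (0.969). For HAS3, HYAL2, HYAL3 and UGDH the closest genes were TMEM131 (0.937), FN1 (0.983), CASKIN2 (0.890) and GORASP2 (0.927), and HYAL1 was too low to be compared. Between members, r was 0.939 for HAS2 and CEMIP and 0.777 for CEMIP and CEMIP2. The libraries form 2 clusters, 1 for each cell line, which every one of these values shares, so they describe the pattern over groups and were not tested.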

How the data were processed

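Whole-transcriptome RNA-seq libraries of 16 sorted cell populations were analysed as deposited. Each count is a number of read pairs on a gene, which the authors obtained by removing ribosomal reads with Bowtie, aligning to hg19 with STAR and counting on Gencode v19 genes, without filtering. TPM values were deposited by the authors beside the counts, and how they were calculated is not given in the sources used here. The processing notes name STAR 2.6.1a and edgeR 3.22.5. Labels name a TruSeq kit for all libraries, whereas the methods describe ribosomal depletion for low serum, and the medium is given differently in the 2 sources.

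Symbols came from Gencode v44 lifted to GRCh37 (55538 of 57820 identifiers matched). Within each serum condition, protein-coding genes whose 8 libraries together held 10 counts or more (16069 in low serum, 15414 in standard serum) were normalised by TMM and fitted with edgeR 4.0.16 (robust quasi-likelihood F-test, 4 groups in one model), with Benjamini-Hochberg adjustment over all genes. The SE was taken as the absolute log2 fold change over the root of its F value. DESeq2 1.42.0 and limma 3.58.1 (limma-trend on log2 TPM) served as alternatives, besides other filters and scalings, each cell line alone, a replicate block, and each library left out in turn, where the lone sample of a group is assumed to vary like the other groups. Values of the named list genes without each library were added after the data were seen. Scripts ran in R 4.3.3 and in Python 3.11.15, with matplotlib 3.10.9, scipy 1.17.1, pandas 2.3.3 and numpy 2.4.6. Simulated data held 15924 genes in low and 15309 in standard serum. The fit called all 200 genes changed 4-fold and 1 of the other genes in each serum condition. The changed genes were drawn from well-counted ones and changed in Wnt-positive MDA-MB-231 only, so scarce genes and smaller changes were not covered. Apart from these changes each gene had the same mean in all groups, and its spread came from dispersions fitted to these data. Calls used the DEG threshold. Differences between the lines and calls by adjusted p alone were thus not covered either.

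Replicates are labelled as biological and 2 per group, so p-values rest on a spread shared across groups and genes. The libraries of a group come from the same sorted subline, so this spread does not cover differences between independent sorts. Reporter state and drift of a subline during sorting and expansion cannot be told apart. Precision was set by 27918418 to 46044073 counts per library, and 95% intervals on count ratios are exact and cover counting error only. Promoters and positions marked GRCh38.p14 are from RefSeq, and all other coordinates are GRCh37. No sequence was on hand for HAS2, and no protein sequence was used here. The members and gene lists were chosen with earlier results of these data known. The text names the 8 members, at most 5 DEGs per pathway list plus CD44 and HMMR, the 3 genes most like each member, and overlapping genes, and states where a gene falls outside this rule. One gene of the pathway lists is not reported here.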

Additional observations from a re-analysis of the deposited data

Results flagged for a closer look

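For 7 members in low serum and 3 in standard serum, the reporter change differed between the 2 lines at an adjusted p under 0.05. The difference is the log2 fold change in MDA-MB-231 minus that in MDA-MB-436 (edgeR, 2 libraries per group). In low serum the difference was 1.49 for HAS2, which rose in MDA-MB-231 and gave -0.01 in MDA-MB-436. For CEMIP, which rose in both lines, it was -2.67, but 0.12 on log2(TPM + 1). The difference was -0.73 for HYAL2, which rose in MDA-MB-436 and whose fall in MDA-MB-231 did not hold with DESeq2 (adjusted p = 0.162). It was -0.56 for CEMIP2, which rose in both lines. HYAL3 (-0.59) and HAS3 (-0.52) fell in MDA-MB-231 and missed the threshold in MDA-MB-436, and UGDH gave 0.27. The HAS3 difference did not pass with DESeq2 (adjusted p = 0.191). In standard serum the differences were -0.77 for HYAL2, -0.64 for CEMIP2 and 0.41 for UGDH. For HYAL3 in low serum the adjusted p was 0.0911 with DESeq2 and 0.0714 and 0.0728 without replicate 2 of MDA-MB-231 7TGP-POS or of MDA-MB-436 7TGP-POS. The UGDH difference in standard serum had an adjusted p of 0.0704 without MDA-MB-231 7TGP-NEG replicate 2. Beside a background of 45.7% and 41.2% of all genes that passed this test, such differences were common across the transcriptome.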

How the results depend on the processing

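Of 1472 refits of the members' log2 fold changes, 1361 kept their sign and their side of the adjusted p threshold, or changed sign with neither value past it, 75 were no longer past it, 30 came past it and 6 reversed. All 6 reversals were on the TPM scale: UGDH in MDA-MB-231 in low serum gave -0.030 on log2(TPM + 1) and -0.031 on log2(TPM + 0.1), CEMIP2 between Wnt-positive cells of the lines in low serum gave -0.30 on log2(TPM + 1) and -0.31 on log2(TPM + 0.1) against 0.04, and the CEMIP interactions on log2(TPM + 1) were 0.12 and 1.13 in low and standard serum. On log2(TPM + 1), the members that were DEGs numbered 1, 0 and 0 in MDA-MB-231 with low serum and in MDA-MB-436 with low and standard serum, against 2, 1 and 2, and all DEGs numbered 314, 795 and 941 there and 522 in MDA-MB-231 with standard serum. Interactions among the members numbered 3 with low and 5 with standard serum, and DEGs between Wnt-negative cells of the lines in low serum 2. On log2(TPM + 0.1) these were 4 interactions (4599 over all genes) and 2 DEGs between the lines in low serum, with 2 DEGs in MDA-MB-436. With all gene biotypes, which tests more genes, DEGs between the lines in low serum numbered 10397 (Wnt-negative) and 9749 (Wnt-positive). Leaving out 1 library gave 1 to 2 member DEGs in MDA-MB-231 with low serum. Apart from the pseudocount's compression of low values and the added biotypes, the cause of these shifts was not tested. Labels do not pair the replicates, and deviations of same-numbered libraries correlated at -0.00137, -0.0886, 0.185 and 0.149 over the 4 pairs of sublines. With the replicate block, the member DEGs numbered 2, 1, 1 and 2 as before, and all DEGs 926, 1667, 1170 and 1938. Of the members' calls at an adjusted p under 0.05, the block changed that of UGDH between Wnt-positive cells of the lines in standard serum (0.18, adjusted p = 0.0288 against 0.0533) and no other. The scarcest members, for which counting error weighs most, were HYAL1, and HAS2 and CEMIP in MDA-MB-436. It also weighed on HAS3 with standard serum, where pooled count ratios had 95% intervals of 0.683 to 1.07 (MDA-MB-231) and 0.707 to 1.06 (MDA-MB-436). For HYAL3 in MDA-MB-436 the intervals were 0.759 to 1.02 with low and 0.838 to 1.08 with standard serum.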
